A study of Mus musculus with 13 samples.

Results

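The genes described here are 10 components of fibroblast growth factor (FGF) signalling and its feedback on the kinase ERK, named by symbol and found as 10 of 25965 rows of an RNA-seq table. They are the ligands Fgf4 and Fgf15, the receptors Fgfr1, Fgfr2, Fgfr3 and Fgfr4, and the feedback inhibitors Dusp6, Spry2, Spry4 and Spred1. RNA was sequenced from female mouse embryonic stem cell (mESC) lines from FVB/NJ dams crossed with CAST/EiJ sires, and the values count both alleles together. The study asked what loss of Smarcc1, a subunit of the BAF chromatin remodelling complex, does to differentiating female mESCs. All cells had been expanded in 2i medium, which holds the MEK inhibitor PD0325901 and the GSK3 inhibitor CHIR99021, and were then weaned stepwise into DME HiHi, a medium with fetal bovine serum. Day0 was 1 library of undifferentiated cells without a hairpin.

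Nons, Smarcc1.6 and Smarcc1.7 each had 1 library on days 4, 5, 6 and 7 of differentiation, 13 libraries in all. Nons cells carried a nonsilencing control hairpin, and the other 2 groups each carried a different hairpin against Smarcc1. All 3 groups were transduced with virus during weaning and selected with puromycin. Differentiation was not directed to one lineage. With 1 library per group and day, the 4 days stood in for replicates. No source used here says that they came from separate cultures. The p-values thus measure the spread between these libraries, which may be technical. In comparisons of groups averaged over days, that spread also holds any change of the difference from day to day.

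FGF ligands bind receptor tyrosine kinases, and the signal runs through the adaptor FRS2, RAS, RAF and MEK to ERK. ERK then switches on genes for its own inhibitors: DUSP6 is a phosphatase that removes the activating phosphates from ERK, and the Sprouty proteins (SPRY2, SPRY4) and the related SPRED1 act upstream, on the steps around RAS and RAF. In mESCs, FGF4 made by the cells themselves is the best known activator of this cascade, and blocking MEK helps to hold the cells in the naive state. Fgf15 is the mouse counterpart of human FGF19, a ligand that works with FGFR4 and the co-receptor beta-Klotho in the adult liver and is also made in the embryo.

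The sequence matched by each hairpin is shown because it defines the perturbation. Each 21-base stretch matched the coding sequence of Smarcc1 and of no other gene in the GENCODE M21 transcripts (GRCm38, the assembly also called mm10). The Smarcc1.6 site was at chr9:110177473-110177493 on the + strand, in exon 13 of ENSMUST00000199896.1. The Smarcc1.7 site was at chr9:110173912-110173932 on the + strand, in exon 11 of the same transcript.
Smarcc1.6: caggatgaagaagcagttaca
Smarcc1.7: cagaaggaagaagatgagcaa

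RefSeq start windows (GRCm38.p6) were found for 7 of the 10 genes, and those of Fgf4, Dusp6 and Spry2 are shown, as a ligand and a pair of feedback genes whose levels the results turn on. Each window is the 250 bases before the start of transcription, in the direction of the gene. The Fgf4 window is chr7:144861136-144861385 (+ strand), the Dusp6 window is chr10:99262981-99263230 (+ strand) and the Spry2 window is chr14:105896820-105897069 (- strand). Capitals mark the ETS core CGGAA on either strand, a short form of the site of ETS factors, among which ETV4 and ETV5 are products of ERK target genes.
Fgf4: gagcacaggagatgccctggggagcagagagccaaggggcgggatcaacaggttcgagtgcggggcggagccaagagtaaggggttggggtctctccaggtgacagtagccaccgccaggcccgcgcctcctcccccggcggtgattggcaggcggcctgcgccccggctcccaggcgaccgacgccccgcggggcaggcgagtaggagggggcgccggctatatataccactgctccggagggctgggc
Dusp6: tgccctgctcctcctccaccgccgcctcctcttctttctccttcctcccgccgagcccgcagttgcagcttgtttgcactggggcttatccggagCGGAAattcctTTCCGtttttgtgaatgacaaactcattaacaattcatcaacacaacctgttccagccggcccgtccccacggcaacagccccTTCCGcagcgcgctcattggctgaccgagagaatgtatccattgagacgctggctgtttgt
Spry2: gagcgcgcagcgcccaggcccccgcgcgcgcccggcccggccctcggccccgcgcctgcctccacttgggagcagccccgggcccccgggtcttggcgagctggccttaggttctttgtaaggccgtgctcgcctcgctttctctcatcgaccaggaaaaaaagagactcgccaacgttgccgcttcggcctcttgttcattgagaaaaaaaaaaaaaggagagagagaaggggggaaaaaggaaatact

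The Dusp6 window held 3 matches to CGGAA, which begin 155, 144 and 61 bases before the start, and the Fgf4 and Spry2 windows held none. Of the windows not shown, those of Fgfr4 and Spred1 held 1 match each, which begin 177 and 17 bases before the RefSeq start. The table places the starts of both genes elsewhere. The Fgfr4 window (chr13:55152568-55152817) runs past the table's start at 55152640. The Spred1 window ends at chr2:117121070, ahead of the table's start at 117121374. Of 32851 windows of the same length over all genes, 25.2% held at least 1 match and 2.12% at least 3. The longer ETS motif CCGGAAG (which contains CGGAA), the CRE motif TGACGTCA and the AP-1 motif TGANTCA were searched on both strands and were in none of the windows of the 7 genes, against 6.91%, 1.55% and 6.75% of all windows. GC content was 71.2% in the Fgf4 window, 56.4% in the Dusp6 window and 62.4% in the Spry2 window, with a median of 52.4% over all windows.

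Libraries held between 13993440 (Smarcc1.7, day 5) and 63548092 (Smarcc1.6, day 4) mapped reads, as recovered from the steps of the values. Day0 and the 3 libraries of day 6 stood apart, with 85.3 to 86.5% of mapped reads in genes against 91.6 to 92.6% in the remaining 9. Libraries of one day, and day 6 and Day0, were alike in this share, whereas changes from day to day run across it. Smarcc1 was lower than in Nons of the same day in 8 of 8 hairpin libraries, by 1.06 log2 units on average, but its same-day difference was -1.68 with Smarcc1.6 and -1.14 with Smarcc1.7 on day 4 and -0.61 and -0.38 on day 7. The label mESC fitted Day0, where the summed level of 7 pluripotency markers was 5239 counts per 1000000 mapped reads (CPM), against 1103 to 1747 CPM in Nons. Among them Pou5f1 changed little, at 10.24 log2 CPM in Day0 and 9.64 to 10.54 in Nons.

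**Figure D1:**
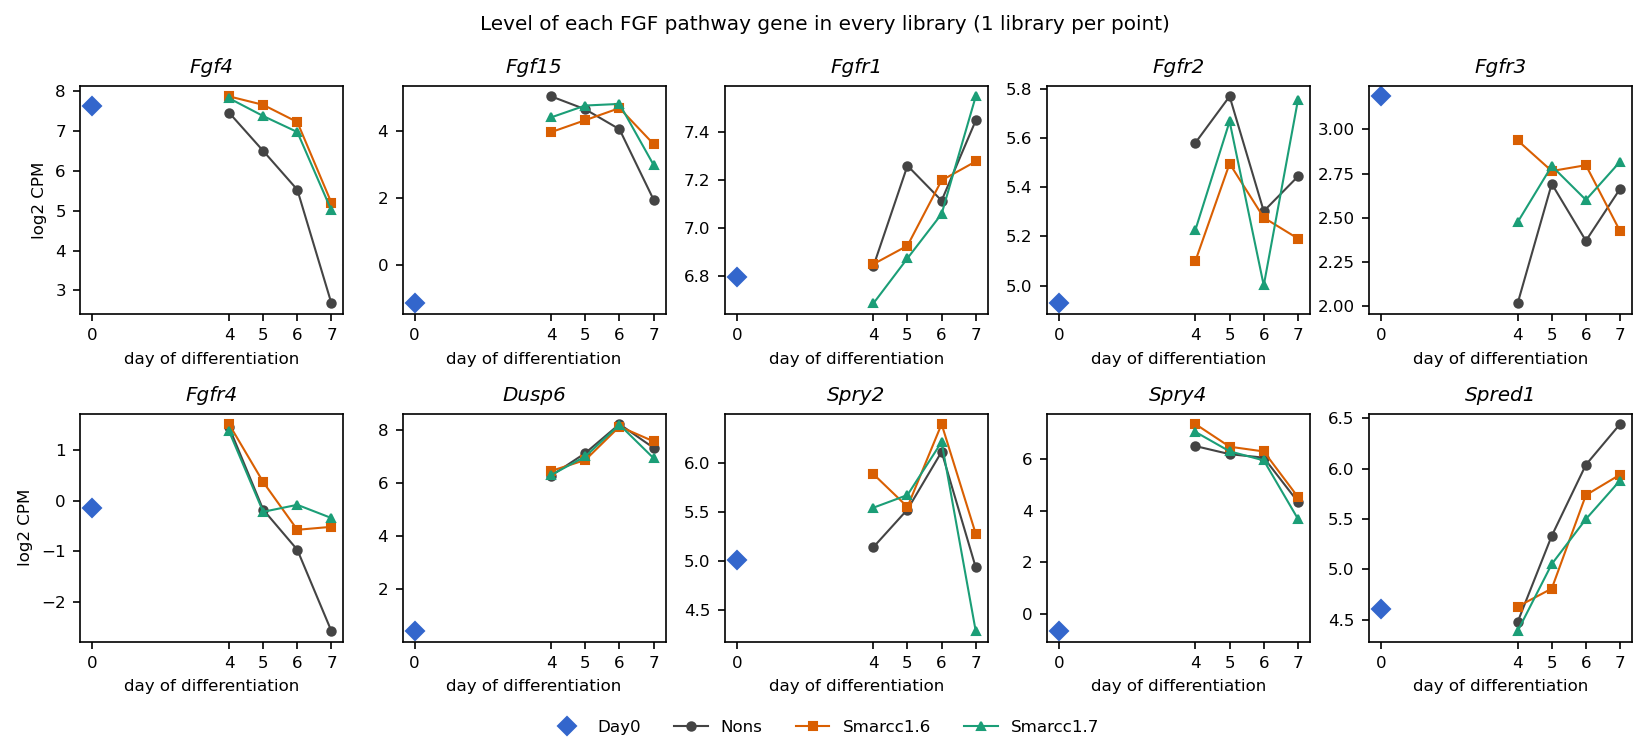
Level of each of the 10 genes (log2 CPM, vertical axes differ between panels) against day of differentiation, with 1 point per library (blue diamond, Day0; grey circles, Nons; orange squares, Smarcc1.6; green triangles, Smarcc1.7). Dusp6, Spry4 and Fgf15 sit near or under 0.43 log2 CPM in Day0 and at 1.94 or more in every later library, and the Fgf4 lines of both hairpins lie above that of Nons on all 4 days.

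Fgf4 fell with day and less so in knockdown, Fgf15 turned from lower to higher than Nons, and the feedback genes Dusp6 and Spry4 were far above Day0 and not called between knockdown and Nons. A gene was tested if its mean over the 12 libraries of days 4 to 7 was at least 0 log2 CPM, which 13406 genes and 9 of the 10 members met (Fgfr4 had a mean of -0.07). Tests were limma fits with Benjamini-Hochberg adjusted p-values over all of these genes, and a gene was called at an adjusted p under 0.05. With both hairpins together against Nons, 2 of the 9 tested members were called, Fgf4 higher and Spred1 lower, against 11.6% of all tested genes. With Smarcc1.6 alone 1 of 9 was called and with Smarcc1.7 alone 1 of 9, Fgf4 in both, against 9.3% and 2.45% of all genes. The median difference of the 9 members was 0.17 with both hairpins together, and that of all tested genes was -0.01. These comparisons share the Nons libraries.

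Between the hairpins themselves (Smarcc1.6 minus Smarcc1.7) 0 of 9 members and 0% of all genes were called by limma, and 0% with voom weights, although 530 genes had an unadjusted p under 0.05. Spry4 was the only member among those, with a difference of 0.42 log2 units (95% interval 0.08 to 0.76, limma adjusted p = 0.989). For Fgf4 the hairpins differed by 0.19 (95% interval -0.41 to 0.79). For the change per day, 3 of 9 members rose (Spred1, Fgfr1, Dusp6), against 34.9% of all genes, and 3 fell (Fgf4, Spry4, Fgf15), against 25.6%. That fit had no block for day, so libraries of one day counted as separate and its p-values may be too small. For the difference between knockdown and Nons changing with day, 2 of 9 were called (Fgf4, Fgf15), against 3.75% of all genes.

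**Figure D2:**
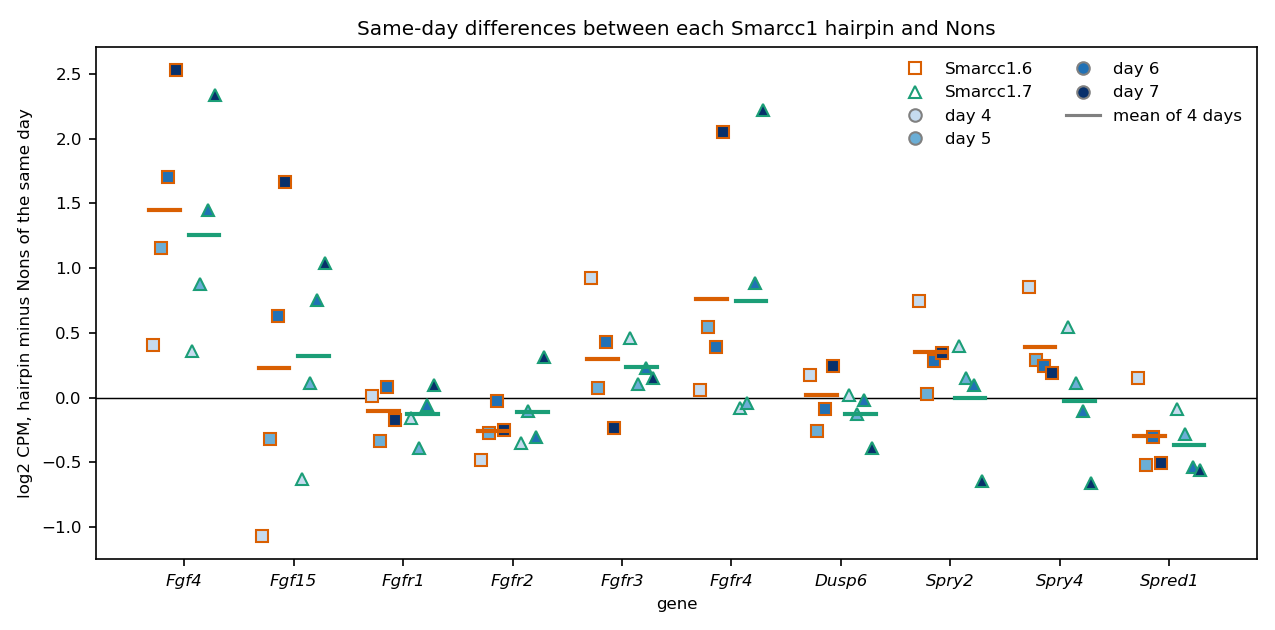
Difference in log2 CPM between each hairpin library and the Nons library of the same day for each gene (squares, Smarcc1.6; triangles, Smarcc1.7; darker fill, later day; bars, mean of the 4 days). All 8 Fgf4 points lie above 0 and reach 2.53 and 2.34 on day 7, whereas the 8 Dusp6 points lie between -0.39 and 0.25.

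Fgf4 lies at chr7:144861386-144865243 (+ strand, mm10). Its level was 7.62 log2 CPM in Day0 and 7.47, 6.51, 5.53 and 2.67 in Nons on days 4, 5, 6 and 7. Smarcc1.6 libraries gave 7.88, 7.66, 7.23 and 5.20, and Smarcc1.7 libraries gave 7.83, 7.38, 6.98 and 5.01. The gene was thus near its undifferentiated level on day 4 in all groups and lowest on day 7, where only 189 reads remained in Nons against 2155 and 1635 with the hairpins. The day 7 level was 0.036 times the day 4 level in Nons, 0.156 times with Smarcc1.6 and 0.142 times with Smarcc1.7. Over the 3 groups together Fgf4 fell by 1.09 on the log2 scale per day (SE 0.16, limma adjusted p = 0.000224).

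On every day both knockdown libraries lay above Nons, although the ranges of the groups over all days overlapped. The difference was 0.41 and 0.36 log2 units on day 4 and 2.53 and 2.34 on day 7 (Smarcc1.6 and Smarcc1.7). Its mean was 1.45 ± 0.89 (SD, n = 4) with Smarcc1.6 and 1.26 ± 0.85 (SD, n = 4) with Smarcc1.7, fold differences of 2.73 and 2.39. In limma, Fgf4 was higher in knockdown by 1.35 ± 0.23 (SE) log2 units (adjusted p = 0.00565, higher in 8 of 8 libraries), and each hairpin also passed in the fit with all 3 groups (adjusted p = 0.0109 with Smarcc1.6 and 0.0430 with Smarcc1.7). Fitted on the libraries of 1 hairpin and Nons only, it did not pass (adjusted p = 0.0846 and 0.0925). The difference grew by 0.67 ± 0.07 (SE) log2 units per day (adjusted p = 0.000622). The SDs of 0.89 and 0.85 and the SE of 0.23 hold this growth as well as the spread between libraries. Fgf4 was called against Nons whichever 1 of the 12 libraries was left out (adjusted p up to 0.0312) but not without day 6 (adjusted p = 0.0546), and its growth with day was called in all 16 such fits (adjusted p up to 0.0310). The call with Smarcc1.7 held in 4 of 12 fits without a single library (adjusted p up to 0.175) and in 1 of 4 without a day (adjusted p up to 0.271).

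Of 7 pluripotency markers, 5 rose in knockdown (Tfcp2l1, Sox2, Klf4, Zfp42 and Esrrb, by 0.69 to 1.40 log2 units) and none fell. Over all genes 11.6% were called, and none of the 7 was at 0 reads in any library. Nanog and Pou5f1 were not called (0.74 and 0.07, limma adjusted p = 0.0859 and 0.604). With Smarcc1.6 5 of the 7 rose and with Smarcc1.7 2, where 9.3% and 2.45% of all genes were called. Of the differences of the 7 from Nons, that of Sox2 rose with day (0.33 per day), as that of Fgf4 did. Those of Tfcp2l1 (-0.49) and Nanog (-0.65) fell with day in limma, where the change was called for 3.75% of all genes. The summed level of the 7, a large part of it from Pou5f1, was 1103 to 1747 CPM in Nons, 1366 to 2686 with Smarcc1.6 and 1109 to 2217 with Smarcc1.7. Their part in the Fgf4 difference was not tested, and in bulk RNA a larger number of cells that express a gene and more RNA per cell cannot be told apart.

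Fgf15 lies 31289 bp beyond the end of Fgf4, at chr7:144896532-144900953 on the same strand, and 25.7% of its exonic bases overlap other annotated genes. Day0 held 10 reads of Fgf15 (-1.16 log2 CPM). In Nons the gene was highest on day 4 and lowest on day 7, at 5.03, 4.64, 4.05 and 1.94 log2 CPM on days 4 to 7. The Smarcc1.6 values were 3.96, 4.32, 4.68 and 3.60, and the Smarcc1.7 values 4.40, 4.76, 4.80 and 2.98. Both knockdowns therefore peaked on day 6, when Nons was already below its own day 4 level. Day 6 was also the day with the lower share of reads in genes, whose part in this peak was not tested. Over the 3 groups Fgf15 fell by 0.49 on the log2 scale per day (SE 0.18, limma adjusted p = 0.0333), a call lost without day 5, without day 7 (slope 0.02) and in 5 of 12 fits without a single library (adjusted p up to 0.118).

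The sign of the Fgf15 difference turned during the series. Knockdown minus Nons was -1.07 and -0.63 log2 units on day 4 (Smarcc1.6 and Smarcc1.7), 0.63 and 0.76 on day 6 and 1.66 and 1.04 on day 7. Averaged over days, the difference was 0.27 (95% interval -0.33 to 0.87, limma adjusted p = 0.561), which did not pass. Its change with day did, at 0.74 ± 0.12 (SE) log2 units per day (limma adjusted p = 0.00668). That call was lost without Nons day 4 (adjusted p = 0.0781) or without all of day 4 (adjusted p = 0.0815), and in the 16 fits without a day or a library the estimate lay between 0.66 and 0.83.

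**Figure D3:**
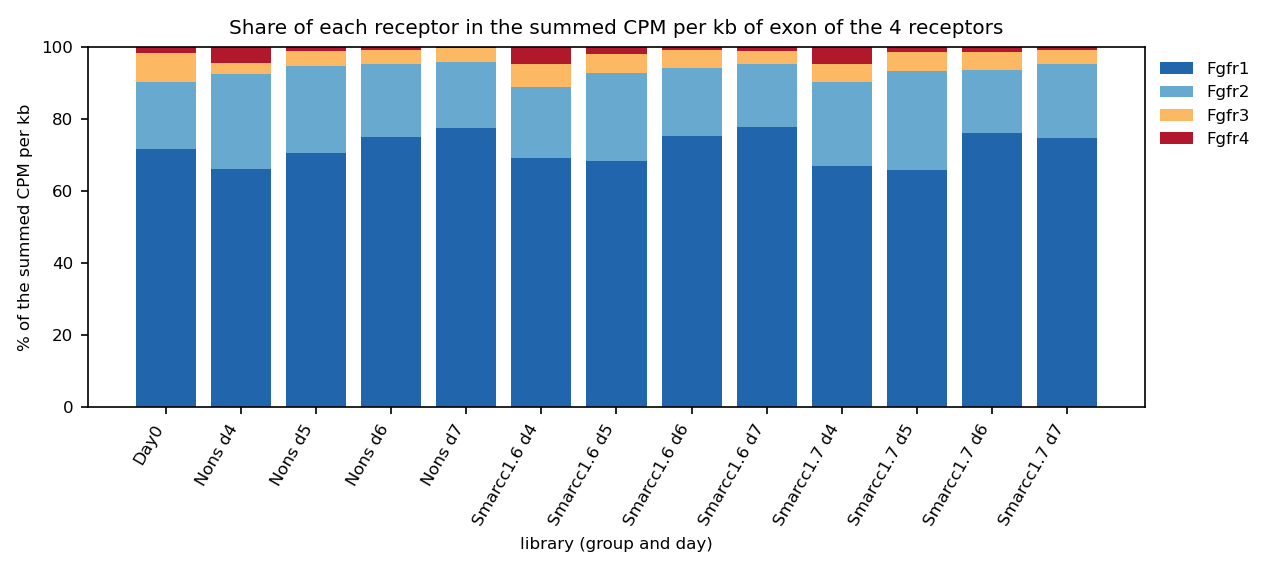
Share of each receptor in the summed CPM per kb of exon of the 4 receptors, as stacked bars, with 1 bar per library. Fgfr1 took 65.9 to 77.8% in every library, and Fgfr4 took from 0.209% (Nons, day 7) to 4.74% (Smarcc1.6, day 4).

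Among the receptors, Fgfr1 was the most abundant in every library. Per kb of exon the order was Fgfr1, Fgfr2, Fgfr3 and Fgfr4 in 12 of 13 libraries, and in Nons on day 4 Fgfr4 stood above Fgfr3. Fgfr1, the main FGF receptor of pluripotent cells, was at 6.80 log2 CPM in Day0, at 6.84, 7.26, 7.11 and 7.45 on days 4 to 7 in Nons, at 6.85, 6.93, 7.20 and 7.28 with Smarcc1.6 and at 6.68, 6.87, 7.06 and 7.55 with Smarcc1.7. The 3 groups overlapped on this scale and all were highest on day 7. Fgfr1 rose by 0.20 ± 0.04 (SE) log2 units per day (limma adjusted p = 0.00071), and its difference between knockdown and Nons was -0.11 (95% interval -0.27 to 0.05).

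Fgfr2, which in the early embryo marks the extraembryonic lineages and primitive endoderm, was at 4.93 log2 CPM in Day0 and between 5.00 and 5.77 in the 12 later libraries. Its knockdown difference was -0.19 (95% interval -0.42 to 0.05) and its slope 0.00 per day (95% interval -0.14 to 0.15), or -0.08 with each library centred on the median of its autosomal genes. The table's Fgfr2 row spans 2960900 bp (chr7:130162451-133123350, - strand) and runs over 37 other genes of the table, so reads of other genes could enter it where strand or exons were not kept apart.

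Fgfr3 was at 3.19 log2 CPM in Day0 and between 2.02 (Nons, day 4) and 2.94 (Smarcc1.6, day 4) afterwards. All 3 groups were below Day0, by 0.82 in Nons, 0.39 with Smarcc1.6 and 0.59 with Smarcc1.7 on day 6, and no group moved steadily from day to day. Neither its knockdown difference of 0.27 (95% interval -0.06 to 0.59) nor its slope of 0.03 (95% interval -0.12 to 0.18) passed, and the slope was -0.05 when libraries were centred on their autosomal median.

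Fgfr4 was the least abundant member, with 5 to 180 reads per library. Its level was -0.16 log2 CPM in Day0 and 1.44, -0.18, -0.97 and -2.57 in Nons on days 4 to 7. Under Smarcc1.6 its levels were 1.50, 0.36, -0.58 and -0.52, and under Smarcc1.7 1.36, -0.22, -0.08 and -0.34. The groups were closest on day 4 and furthest apart on day 7, where Nons had 5 reads. When all 25965 rows were tested, Fgfr4 fell by 0.83 log2 units per day (limma adjusted p = 0.0012), and its knockdown difference of 0.75 and the change of that difference with day, 0.68, did not pass (adjusted p = 0.233 and 0.207).

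Among the feedback inhibitors, Dusp6 and Spry4 were nearly absent from Day0 and abundant afterwards. Dusp6 had 30 reads in Day0 (0.43 log2 CPM) and was at 6.29, 7.14, 8.23 and 7.33 log2 CPM in Nons on days 4 to 7. Smarcc1.6 libraries gave 6.46, 6.88, 8.13 and 7.58, and Smarcc1.7 libraries gave 6.31, 7.01, 8.21 and 6.94. All groups were highest on day 6, and the ranges of the 3 groups overlapped. The knockdown difference was -0.06 (95% interval -0.27 to 0.16, limma adjusted p = 0.763).

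Dusp6 rose by 0.40 ± 0.14 (SE) log2 units per day (limma adjusted p = 0.0306), but this call depended on which days entered. The slope was 0.14 without day 4 (adjusted p = 0.657) and 0.92 without day 7 (adjusted p = 0.0001), and the call was also lost without day 5 (adjusted p = 0.0869) or without any 1 of the 3 day 4 libraries (adjusted p up to 0.102). When each library was centred on the median of its autosomal genes, every slope moved by -0.09 and Dusp6 no longer passed (0.31, adjusted p = 0.0723). Under that centring the share of called slopes that rise over all genes was 43.0%, against 57.7% as deposited.

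Spry4, on chromosome 18, had 14 reads in Day0 (-0.67 log2 CPM). It was at 6.50, 6.19, 6.05 and 4.34 log2 CPM in Nons on days 4 to 7, at 7.35, 6.47, 6.29 and 4.53 with Smarcc1.6 and at 7.05, 6.30, 5.94 and 3.68 with Smarcc1.7. Each group was highest on day 4, in contrast to Dusp6. Spry4 fell by 0.86 on the log2 scale per day (SE 0.12, limma adjusted p = 0.000157), and it was called in each of the 16 fits with a day or a library removed. Smarcc1.6 was above Nons on all 4 days (mean 0.39 ± 0.31 SD, n = 4, adjusted p = 0.14) and Smarcc1.7 on 2 of 4 (mean -0.03 ± 0.50 SD, n = 4).

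Spry2, at chr14:105891949-105896819 (- strand), was already present in Day0 at 5.02 log2 CPM (722 reads). Nons was at 5.14, 5.53, 6.11 and 4.94 on days 4 to 7, Smarcc1.6 at 5.89, 5.55, 6.39 and 5.28, and Smarcc1.7 at 5.54, 5.67, 6.21 and 4.29. Every group had its highest value on day 6 and its lowest on day 7. A straight line over days described this poorly: the slope was -0.14 per day (limma adjusted p = 0.418), 0.36 without day 7 (adjusted p = 0.0106) and -0.25 without day 6 (adjusted p = 0.0259). Its knockdown difference was 0.17 (95% interval -0.18 to 0.53).

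Spred1, at chr2:117121374-117182279 (+ strand), was the inhibitor with the steadiest course. It was at 4.61 log2 CPM in Day0 and at 4.48, 5.33, 6.04 and 6.44 in Nons on days 4 to 7. The Smarcc1.6 values were 4.63, 4.81, 5.74 and 5.94, and the Smarcc1.7 values 4.38, 5.05, 5.50 and 5.88. Every group was higher on each later day, and Spred1 rose by 0.55 ± 0.05 (SE) log2 units per day (limma adjusted p = 6.9e-06).

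Spred1 was lower in knockdown by 0.33 log2 units on average (95% interval of knockdown minus Nons -0.54 to -0.12, limma adjusted p = 0.0470, lower in 7 of 8 libraries). The exception was Smarcc1.6 on day 4, which lay 0.15 above Nons. This call was close to the threshold: it held without day 4 but not without day 5, 6 or 7 (adjusted p up to 0.197), and in 2 of 12 fits without a single library (adjusted p up to 0.165). Each hairpin alone did not pass (adjusted p = 0.14 with Smarcc1.6 and 0.108 with Smarcc1.7).

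**Figure D4:**
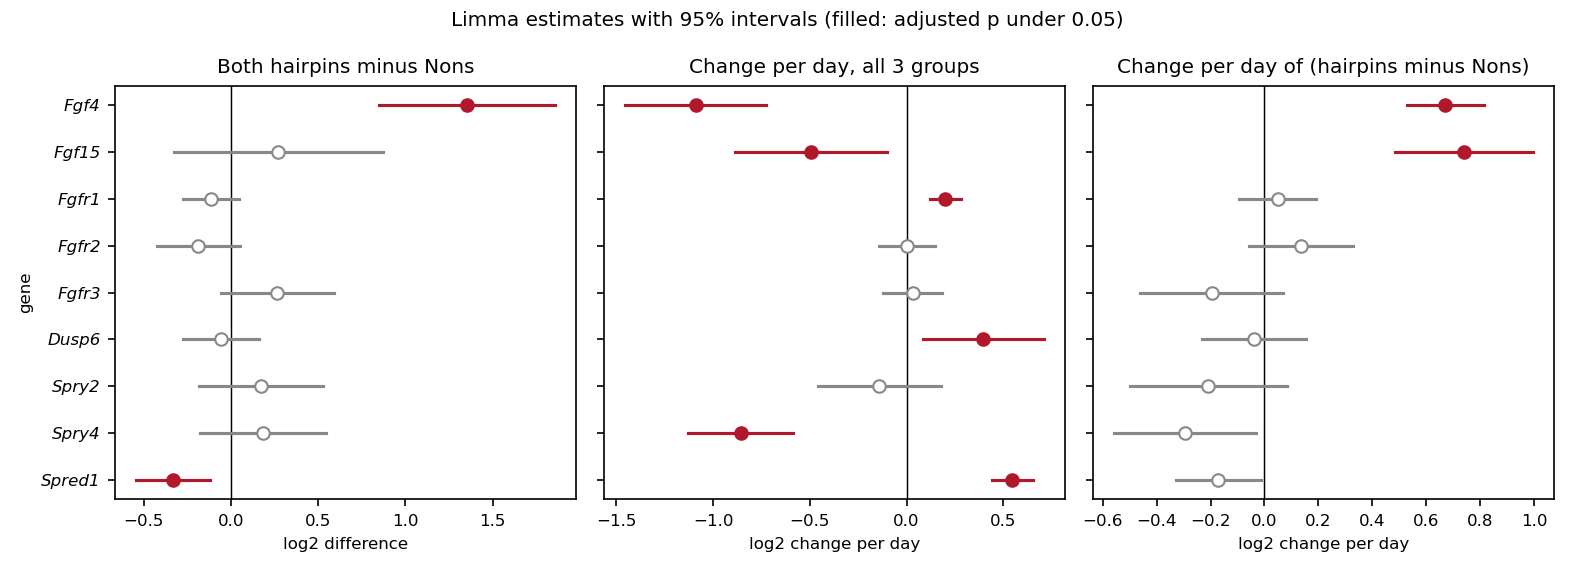
Limma estimates (points) with 95% intervals (lines) for the 9 tested members, as the knockdown difference in log2 units (left), the change per day in log2 units (middle) and the change per day of the knockdown difference (right). Filled red points had an adjusted p under 0.05, namely 2 on the left, 6 in the middle and 2 on the right.

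Day 6 was set against Day0 because these 4 libraries were alike in their share of reads in genes, and with 1 Day0 library no test was made. In all 3 groups 4 of the 9 members were at least 1 log2 unit above Day0 on day 6 (Fgf15, Dusp6, Spry2 and Spry4), where 16.3% of 13333 genes were, and 0 of 9 were that far below, where 8.28% were. Dusp6 was 209 to 223 times its Day0 level, Spry4 98.0 to 125 times, Fgf15 36.8 to 62.2 times and Spry2 2.14 to 2.60 times. Fgf4 was below Day0 on day 6 in all groups, by 2.09 log2 units in Nons, 0.39 with Smarcc1.6 and 0.64 with Smarcc1.7. Fgfr1, Fgfr2, Fgfr3 and Fgfr4 were each within 0.82 log2 units of Day0 on that day. Day0 cells were in the medium with the MEK inhibitor and without virus or puromycin, so the effects of medium, time, virus and selection cannot be told apart.

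On day 6, 5 of the 9 tested members (Fgf4, Fgf15, Dusp6, Spry2 and Spry4) were at least 0.5 log2 units above the mean of days 5 and 7 in all 3 groups, where 4.93% of genes were. 0 members were that far below. The share of all genes in that direction was not taken, so that count is not read as a result. For Dusp6 this excess was 0.99 in Nons, 0.91 with Smarcc1.6 and 1.23 with Smarcc1.7, and for Spry2 it was 0.88, 0.98 and 1.23. Dusp6 and Spry2 in all groups, and Fgf15 with both hairpins, peaked on the day with the lower share of reads in genes. Fgf4 and Spry4 instead lay on a course that dropped most between days 6 and 7. The part of that share in the day 6 values was not tested.

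A list of 65 other genes of the pathway held 63 genes of the table, of which 48 passed the filter. Of these 48, 4 rose and 5 fell in knockdown, where 11.6% of all genes were called. With Smarcc1.6 alone 3 rose and 4 fell, where 9.3% of all genes were called. With Smarcc1.7 alone 0 rose and 2 fell (Fgf8 and Flrt3), where 2.45% were. With day 20 rose and 12 fell, where 34.9% of all genes rose and 25.6% fell. For the knockdown difference by day 1 rose (Klb) and 1 fell (Fgf3), where 3.75% of all genes were called. Among 6 tested ligands Fgf17 (1.32) and Fgf1 (0.92) rose in knockdown. Both passed with Smarcc1.6 but not with Smarcc1.7 (limma adjusted p = 0.160 and 0.164). Fgf17 was 4.55 log2 CPM with Smarcc1.6 and 3.83 with Smarcc1.7 on day 4, against 2.21 in Nons. On day 7 it was 4.39 and 4.01, against 4.07 in Nons. Fgf8, a ligand of the primitive streak and midbrain, fell by 1.88 on the log2 scale (limma adjusted p = 0.00186). Fgf8 was 2.49, 3.74, 5.42 and 6.85 log2 CPM in Nons on days 4 to 7, and 1.22, 2.11, 2.56 and 5.00 with Smarcc1.6 and 1.62, 2.48, 2.59 and 4.44 with Smarcc1.7. It thus rose with day (1.17 per day) while Fgf4 fell, and was lower in knockdown where Fgf4 was higher. Of 4 mesoderm markers 2 were tested. T, a gene of the primitive streak, fell in knockdown by 2.50 on the log2 scale (limma adjusted p = 0.0341). It passed with neither hairpin alone (adjusted p = 0.116 with Smarcc1.6 and 0.0777 with Smarcc1.7). On day 4 T was 1.28 log2 CPM with Smarcc1.6 and 1.02 with Smarcc1.7, not below 0.97 in Nons. Kdr was not called over the 4 days together (-1.10, limma adjusted p = 0.231). The knockdown difference fell with day for T (-1.70 per day, limma adjusted p = 0.0212) and for Kdr (-1.46, adjusted p = 0.0163). On day 4 Kdr was 3.81 log2 CPM with Smarcc1.6 and 3.26 with Smarcc1.7, above 2.49 in Nons. The summed level of 4 mesoderm markers was 8.05 to 237 CPM in Nons, 3.11 to 25.3 with Smarcc1.6 and 2.11 to 12.8 with Smarcc1.7, with Mesp1 at 0 reads in Day0 and in 3 hairpin libraries. Their part in the Fgf8 difference was not tested.

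Of 3 tested co-receptors Klb, which encodes beta-Klotho, rose in knockdown by 2.16 ± 0.40 (SE) log2 units (limma adjusted p = 0.00742), and Flrt3 fell by 0.82. Klb passed with Smarcc1.6 (limma adjusted p = 0.0113) but not with Smarcc1.7 (adjusted p = 0.0546). Klb was 4.89 log2 CPM in Day0 and 3.29, 0.57, -1.68 and -3.89 in Nons on days 4 to 7. Under Smarcc1.6 its levels were 3.70, 2.75, 1.41 and 0.08, and under Smarcc1.7 3.68, 2.48, 1.03 and -1.27. As for Fgf4, the groups were close on day 4 and far apart on day 7, where Nons held 2 reads, and the difference grew by 0.95 per day (limma adjusted p = 0.0373). Klb had the steepest fall with day of the list (-1.74 per day), followed by the ERK target Etv1 (-0.92). The steepest rises were those of Ier3 (1.31), another ERK target, and Fgf8.

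Of 18 tested adaptors and kinases Ptpn11 (-0.22) and Mapk3 (-0.33), which encodes ERK1, fell in knockdown. Ptpn11 passed with neither hairpin alone, and Mapk3 passed with Smarcc1.6 but not with Smarcc1.7. Of 11 tested inhibitors Dusp4, a nuclear ERK phosphatase, fell (-0.58, limma adjusted p = 0.00892) and none rose, where 11.6% of all genes were called. Dusp4 passed with Smarcc1.6 (limma adjusted p = 0.0187) but not with Smarcc1.7 (adjusted p = 0.0587). Of 10 ERK target genes (Etv4, Etv5, Etv1, Egr1, Fos, Fosl1, Ier3, Phlda1, Ccnd1 and Myc) 0 were called in knockdown by limma, 0 with voom weights, and 1 had an unadjusted p under 0.05, where limma called 11.6% of all genes. With day, 3 of these targets rose and 2 fell, where 34.9% and 25.6% of all genes did.

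The genes whose levels over the 12 libraries of days 4 to 7 were most like those of 3 members are given as a description, since libraries of one day share their time and handling. For Fgf4 they were Piwil1, 2900041M22Rik and Rhox13 (Pearson r = 0.99 for each). For Fgf15 they were Txnrd1 and Gclc (0.97 each) and Mt3 (0.95). For Dusp6 they were 2610039C10Rik and Lmo4 (0.99 each) and Pppde1 (0.98).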

How the data were processed

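The deposited table held log2 reads per 1000000 mapped reads (here CPM) for 25965 genes in 13 libraries. The authors made TruSeq libraries, sequenced read pairs on a NextSeq500, trimmed with trim_galore, aligned with tophat or hisat2 to mm10 with positions differing between FVB/NJ and CAST/EiJ masked, and quantified genes in Seqmonk as log2 values. The submitters' processing notes name bcl2fastq and TopHat2 2.0.12. The aligner of each library, the strand setting and the annotation release were not given in the sources used here.

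Groups and days came from sample titles. Whole reads were recovered from the steps of the values (100% of values up to 200 reads within 0.1 of a whole number), and genes with 0 reads carried the value of 0.9 reads. Limma 3.58.1 (R 4.3.3) with a trended prior was run on the deposited log2 values of the 13406 genes with a mean of at least 0, with day as a factor for group differences, with group for the change per day, and with the product of knockdown and day for the interaction. The libraries of a day share their time, so day served as the block for group differences and the interaction. The change per day had no such block. There the 3 libraries of a day counted as separate, so its p-values may be too small. It called 8114 genes with all groups and 1620 in Nons only. The code was tested on simulated data. The 10 genes, the pathway and marker lists and the tests were chosen with earlier results of these data known. Named genes were all 10 members, and list genes called in knockdown or with the 2 largest slopes each way. The values of 1 list gene are not reported here. Levels per kb used exonic length in GENCODE M21. Values at or under 3 reads were read as not detected. Windows came from RefSeq and hairpin sequences from the study's list.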

Additional observations from a re-analysis of the deposited data

Results flagged for a closer look

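Of 50 sets of 4 days examined for a value far from the other 3 by Dixon's test, 2 were found, and chance alone gives about 2.5. Fgfr4 with Smarcc1.7 was 1.36 log2 CPM on day 4, against -0.34 to -0.08 on days 5 to 7. The Spry4 difference between Smarcc1.6 and Nons was 0.85 log2 units on day 4, against 0.19 to 0.29 on the other days.

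For a pair of ligands the difference between knockdown and Nons changed with day in the limma test of that change. It grew by 0.67 log2 units per day for Fgf4 and by 0.74 for Fgf15. The Smarcc1 difference itself changed by 0.30 per day, toward 0, and did not pass (limma adjusted p = 0.104).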

How the results depend on the processing

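Over 40 results and 919 alternative values, 805 were the same. For a single gene this meant keeping its side of the threshold, and for a count of members staying near the main count. Of these, 21 single-gene values changed sign without being called in either fit. A single-gene call was lost in 60 and gained in 7, and a count of members moved further in 45. Direction was reversed in 2. With both hairpins against Nons, the number of called members was 1 (Fgf4) with a stricter filter (a mean of 2 log2 CPM or more), with centring on the autosomal median and without the trended prior, and 0 with Smarcc1.6 only, with Smarcc1.7 only and without the day block, where 4 genes were called in all. Without the replicate block 0 members were called for each hairpin too. For Smarcc1.7 it was also 0 with the stricter filter, without the trend and with voom weights. For the change per day it was 2 (Spred1, Fgf4) in Nons only.

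Leaving out a day or a library gave 0 to 2 called members with both hairpins (0 without day 6), 0 to 2 with Smarcc1.6 (0 without day 5 or 6), 0 to 2 with Smarcc1.7, 4 to 7 for the change per day and 1 to 3 for the interaction. Without a day, the Fgf15 slope ran from -0.865 to 0.0228 (without day 7, limma adjusted p = 0.899), and the Spry2 slope from -0.3745 to 0.36 (without day 7, adjusted p = 0.0106). Over all genes, the slope without day 6 gave 8371 calls, and knockdown gave 386 calls without day 5 and 287 without day 6. Fgfr4 had 5 reads in Nons on day 7, so its values there carry a large counting error. The causes were not tested.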
